A study of Caenorhabditis elegans with 2 samples.

Results

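The cuticle collagen genes of Caenorhabditis elegans were examined in a chromatin immunoprecipitation and sequencing (ChIP-seq) map of ZK185.1, a protein that the RefSeq annotation describes as having a C2H2-type zinc finger domain. Members were the protein-coding genes whose symbols are col followed by a number, together with 19 genes named for a body-shape phenotype (dpy, rol, sqt, bli and lon genes that encode cuticle collagens). The rule found 175 of the 19973 protein-coding genes on the nuclear chromosomes, and it used symbols only, not measured values. All libraries came from 1 group with 2 biological replicates: whole hermaphrodite young adults of strain OP474 (unc-119(tm4063) III; wgIs474), collected 56.25 h after starved L1 larvae were released from synchronization. Every worm carried a transgene that expresses ZK185.1 fused at its C terminus to GFP and FLAG. An anti-GFP antibody precipitated the product of that transgene from all tissues at once. Binding in a small tissue and weak binding in all cells therefore cannot be told apart. Peaks were called by the authors against a control alignment. Each replicate, and the pool of the replicates, had a deposited list of 30000 relaxed regions. A further list held 2053 thresholded peaks, which were the strongest 2053 regions of the pooled list. A relaxed list always runs to the same length and so contains many weak regions. Sequencing depth was unknown from these files.

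Cuticle collagens are small secreted proteins with interrupted Gly-X-Y repeats that the epidermis makes in bursts at each moult and that are trimmed, hydroxylated and cross-linked into the layers of the exoskeleton. Different sets build the circumferential furrows, the annuli between them and the struts that join the layers of the adult cuticle, and mutants in them are dumpy, rolling, blistered or long. A young adult has completed its last moult.

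For each gene the strongest region was taken with its summit in the start window, from 1000 bp upstream to 200 bp downstream of the annotated start, in each list. The sequences below are those under the strongest member peak, under the thresholded peak with a ribosomal protein gene on its other side, and under the strongest member region below the threshold. They are read 5′ to 3′ on the minus strand, which is the strand of the member, on ce11. Capitals in the col-185 peak (chrX:13511934-13512105) mark the B box of a tRNA gene, searched as GTTCNANNC on either strand. Capitals in the stretch upstream of col-160 (chrV:13202190-13202376) mark AGGTCA, a motif bound by nuclear hormone receptors, and TATAAA, the core of a TATA box. The motif GAGAG also occurs in the col-185 and col-160 sequences and is left in lower case. The col-38 stretch (chrII:8569395-8569595) held no match on either strand to any of the 5 motifs searched.
col-185: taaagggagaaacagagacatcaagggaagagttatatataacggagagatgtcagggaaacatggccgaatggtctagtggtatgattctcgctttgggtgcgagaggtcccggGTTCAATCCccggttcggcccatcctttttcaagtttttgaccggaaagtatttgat
col-38: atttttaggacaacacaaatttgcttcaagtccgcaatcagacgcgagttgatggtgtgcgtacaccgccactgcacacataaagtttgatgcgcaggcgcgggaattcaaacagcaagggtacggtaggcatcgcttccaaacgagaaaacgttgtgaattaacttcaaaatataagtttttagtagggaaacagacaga
col-160: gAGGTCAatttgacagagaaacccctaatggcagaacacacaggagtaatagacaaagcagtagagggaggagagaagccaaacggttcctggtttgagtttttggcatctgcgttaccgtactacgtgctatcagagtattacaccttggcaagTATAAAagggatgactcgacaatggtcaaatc

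Thresholded peaks were rare at collagen starts, while relaxed regions were about as frequent there as at other genes. A thresholded peak lay in the start window of 3 of 175 members (1.71%), against 6.77% of all coding genes. A pooled relaxed region lay in the window of 58 members (33.1%), against 36.8% of all coding genes. In replicate 1 the count was 64 members (36.6%), against 36.8% of all coding genes, and in replicate 2 it was 60 members (34.3%), against 37.3%. Below the threshold, the strongest pooled region ranked no lower than 5000 for 9 members (5.14%), against 5.52% of all coding genes. It ranked from 5001 to 15000 for 24 members (13.7%), against 11.7%, and from 15001 to 30000 for 22 members (12.6%), against 12.8%. The members thus fell short of the background in the strongest class and stood near it in the 3 weaker classes. Among genes with any pooled region, 3 of 58 members (5.17%) had a thresholded peak, against 1352 of 7347 coding genes (18.4%). With 1 group there was no comparison of conditions, and no test was made over the members, which are not replicates.

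**Figure D1:**
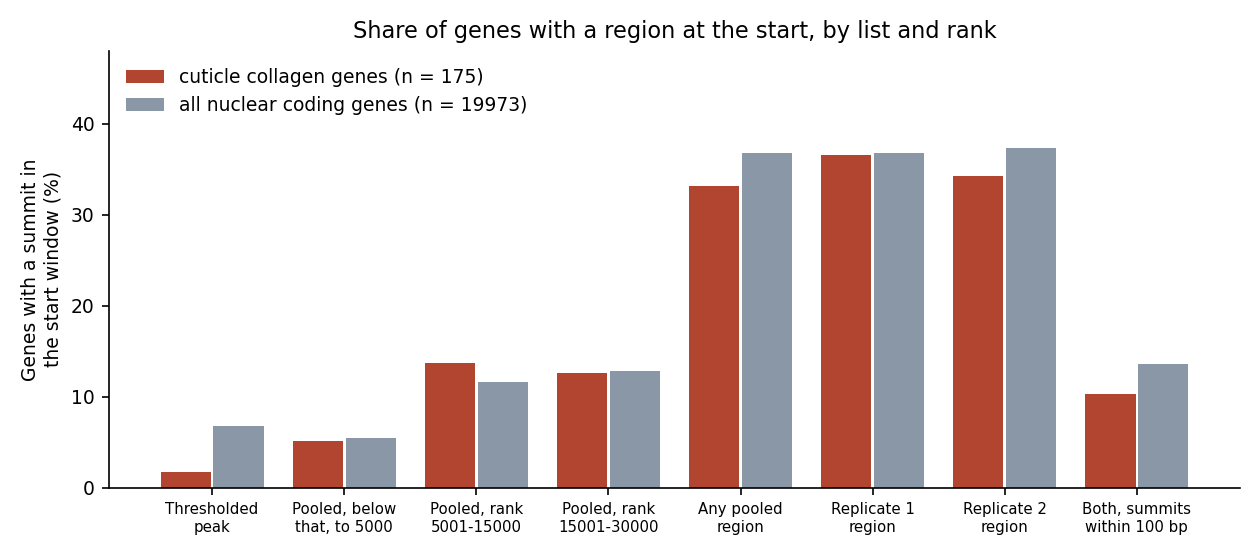
Share of genes, in percent, with a summit in the start window, for the cuticle collagen genes (red, left bar) and all nuclear protein-coding genes (grey, right bar), in the thresholded list, in 3 rank bands of the pooled list, in the whole pooled list, in each replicate list and in both replicates with summits within 100 bp. Of the members 1.71% had a thresholded peak, against 6.77% of coding genes, and the bars for relaxed regions lie close together.

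The signal, the authors' peak height, has no stated scale and differs in level between lists, so values are compared within a list only. Among genes with a pooled region, the signal ranged from 8.60 to 206.6 in the 58 members, with a median of 19.6 and an upper quartile of 27.4. Over the 7347 coding genes with a region it ranged from 8.56 to 1039, with a median of 20.7 and an upper quartile of 41.8. The medians were close, and the upper quartile was lower in the members. In replicate 1 the median was 5.54 for members and 7.58 for all coding genes with a region. In replicate 2 it was 9.15 for members and 10.7 for all coding genes with a region.

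Each of the 3 thresholded peaks lay at another annotated gene, and each was present in both replicates. The strongest was upstream of col-185 (WBGene00000758; chromosome X, 13510035 to 13511097, minus strand). Its signal was 55.8 in replicate 1 (rank 498), 101.4 in replicate 2 (rank 314) and 206.6 in the pooled list (rank 254). The summit was at −935 bp from the col-185 start, where negative positions are upstream, and 9 bp inside a tRNA gene on the same strand (WBGene00014413; 13511970 to 13512041), the gene that holds the B box capitalized above. It also lay within the non-coding RNA gene H06A10.3 on the opposite strand. No other member region had its summit in a tRNA start window.

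The peak assigned to col-63 (WBGene00000639; chromosome I, 8243694 to 8244963, minus strand) covered 8245497 to 8245664. Its signal was 40.2 in replicate 1 (rank 786), 33.4 in replicate 2 (rank 1816) and 127.9 in the pooled list (rank 643). The summit lay at −637 bp from col-63 and 22 bp inside the non-coding RNA gene ZK265.11. It was also in an untranslated exon of the homeobox gene ceh-8 on the same strand. There it lay near the 3′ end of the gene, 5348 bp downstream of the ceh-8 start. The rank of this peak was lower in replicate 2 than in replicate 1, whereas the col-185 peak ranked high in both.

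The peak assigned to col-38 (WBGene00000615; chromosome II, 8568035 to 8569088, minus strand) covered 8569337 to 8569652, and the sequence shown above is taken from its centre. Its signal was 28.4 in replicate 1 (rank 1312), 40.8 in replicate 2 (rank 1349) and 107.1 in the pooled list (rank 858). The summit lay at −407 bp from col-38 and at −432 bp from rpl-5, which encodes a protein of the large ribosomal subunit and is read in the opposite direction. It was the strongest region of both genes. It also lay within the non-coding RNA genes F54C9.16 and F54C9.17. Regions with a gene outside the family spanning the summit, or with the summit in the start window of such a coding or tRNA gene, were left out as an alternative chosen after seeing the data. Genes for piRNAs were ignored. For coding genes that are no members any other gene counted, with no family exempted, so the shares of all coding genes follow a stricter rule. The count of members with a thresholded peak was then 0 of 175, against 2.58% of all coding genes. The count with a pooled region was 34 of 175, a share slightly below the 20.7% of all coding genes. Which gene such a peak belongs to was not tested.

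Member signals left a wide gap above the threshold, while 4 members below it lay within 20% of the lowest thresholded signal. The weakest member peak past the threshold had a signal of 107.1, the weakest thresholded peak of the whole list 57.0, and the strongest member region below the threshold 53.0. That region was shared by the neighbours col-159 (WBGene00000732) and col-160 (WBGene00000733) on chromosome V, whose starts lie close together on the minus strand and whose annotated spans overlap. It covered 13202118 to 13202433, with an intergenic summit at −99 bp from col-159 and −87 bp from col-160. Its signal was 12.5 in replicate 1 (rank 4707), 43.3 in replicate 2 (rank 1238) and 53.0 in the pooled list (rank 2288). The rank in replicate 2 alone was within the length of the thresholded list, and the rank in replicate 1 was not. Replicate 1 and replicate 2 summits lay at −91 and −86 bp from col-160, so the replicates placed the region alike and ranked it differently.

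The next members below the threshold were col-80 and bli-1, neighbours on chromosome II that both lie within the annotated span of dph-2, a diphthamide synthesis gene on the opposite strand. For col-80 (WBGene00000656) the pooled signal was 52.1 (rank 2343) with a summit at 189 bp, inside the gene. The annotation there is an intron, of col-80, of dph-2 or of both. Near that summit the signals were 4.12 in replicate 1 and 26.4 in replicate 2, and replicate 1 had a stronger region of 7.07 at −748 bp. For bli-1 (WBGene00000251), a collagen of the struts, the pooled signal was 48.5 (rank 2595) at −644 bp, with 14.2 in replicate 1 at −667 bp and no region in replicate 2. The col-80 region was thus stronger by rank in replicate 2, and that of bli-1 was in replicate 1 alone.

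The 10 members next below the threshold also included col-111, col-8 and col-140. The col-111 region (chromosome IV) had a pooled signal of 37.9 at −544 bp, 18.3 in replicate 2 and no region in replicate 1. The col-8 region (chromosome III) had a pooled signal of 34.6 at −837 bp, in an untranslated exon of rfl-1, a gene of the NEDD8 pathway, with 24.5 in replicate 2 and no region in replicate 1. The col-140 region (chromosome V) had a pooled signal of 37.5 at 93 bp in the coding exon, with 39.0 in replicate 2 at 140 bp and 11.4 in replicate 1 at −152 bp. In all of these replicate 2 held the stronger region by rank.

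The others were col-12, col-93 and col-144. For col-12 (chromosome V) the pooled signal was 34.9 at 95 bp, with 11.3 in replicate 1 and 4.30 in replicate 2. For col-93 (chromosome III) it was 33.2 at −997 bp, in an intron of the dynein heavy chain gene dhc-4, with 5.50 in replicate 1 at −989 bp. Replicate 2 had 12.4 within 100 bp of that summit but outside the start window, and 11.8 inside the window at −178 bp. For col-144 (chromosome V) it was 28.6 at −254 bp, with 3.06 in replicate 1 at −261 bp and 20.1 in replicate 2 at −110 bp. Among the 10, only the region of col-12 was stronger by rank in replicate 1 while present in both.

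**Figure D2:**
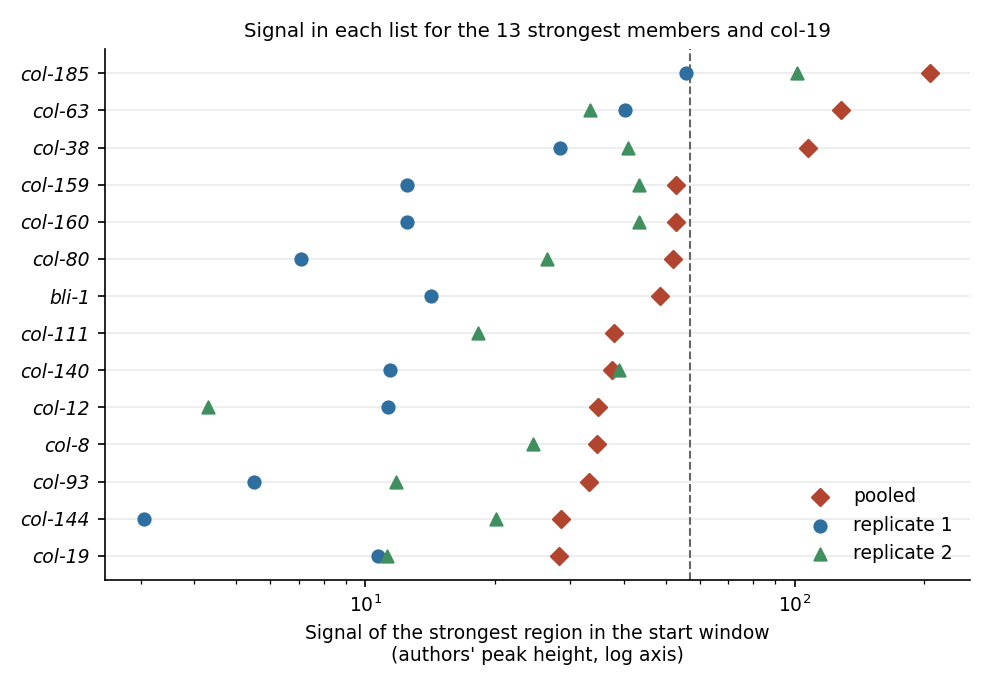
Signal of the strongest region in the start window (authors' peak height, logarithmic axis) for the 3 members with a thresholded peak, the 10 strongest below the threshold and col-19, in the pooled list (red diamonds), replicate 1 (blue circles) and replicate 2 (green triangles). The dashed line is the lowest pooled signal of the thresholded list, 57.0, and applies to the diamonds only. The diamonds of col-185, col-63 and col-38 lie right of it at 107.1 or above, and a missing symbol means no region in that list.

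The count of thresholded members depended on the replicate and on the window. Each replicate list was also cut at the length of the thresholded list. In replicate 1, 3 of 175 members (1.71%) remained, against 5.95% of all coding genes, and they were col-185, col-63 and col-38. In replicate 2 there were 7 of 175, a share below the 6.999% of all coding genes: these 3 with col-159, col-160, col-140 and col-106. The col-106 region, on chromosome IV, had a signal of 32.3 (rank 1891) at 9 bp in replicate 2 and was in neither the pooled list nor replicate 1. With the window limited to 500 bp upstream, only col-38 (1 of 175 members) kept a thresholded peak, against 5.42% of all coding genes. With 2000 bp there were 5 of 175 members, against 9.00% of all coding genes, adding col-94 and col-140. The col-94 addition was a peak of signal 354.9 (rank 76) at −1794 bp, at −12 bp from the small nuclear RNA gene R07E5.16. The col-140 addition had a signal of 147.1 (rank 506) at −1902 bp, at −123 bp from the coding gene F26F12.2. Both additions therefore lay nearer the start of another gene than that of the collagen.

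None of the 19 genes named for a body-shape phenotype had a thresholded peak, against 6.77% of all coding genes. A pooled region lay at 9 of them (47.4%), against 36.8% of all coding genes. A replicate 1 region lay at 10, against 36.8%, and a replicate 2 region at 8, against 37.3%. Matching summits within 100 bp in both replicates lay at 2 (10.5%), against 13.6%. The other 156 members, the numbered col genes, had 3 thresholded peaks and 49 pooled regions (31.4%). The median pooled signal was 17.7 for the shape genes with a region and 19.7 for the numbered col genes with a region. The shape genes with regions were therefore at ordinary signals. Of the 19, 7 (36.8%) had no region in any list, against 47.0% of all coding genes.

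The 6 furrow collagens had 2 pooled regions (33.3%), against 36.8% of all coding genes. The dpy-9 region had a signal of 22.95 at −699 bp, with 13.0 in replicate 1 and no region in replicate 2. The dpy-10 region had 12.05 at −999 bp, at the edge of the window and within the start window of the coding gene T14B4.19, with 2.38 in replicate 1 at −746 bp and 4.12 in replicate 2 at −888 bp. For dpy-8 the regions were in the replicates only, 7.43 in replicate 1 at −182 bp and 4.904 in replicate 2 at −863 bp. The genes dpy-2, dpy-3 and dpy-7, whose products are needed for the furrows, had none in any list. That was 3 of the 6 (50%), against 47.0% of all coding genes. No furrow collagen had replicate summits within 100 bp of each other, against 13.6% of all coding genes.

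Of the 3 annular collagens, dpy-5 had a pooled signal of 15.6 at −131 bp, with 5.86 in replicate 1 at −141 bp and 10.8 in replicate 2 at −21 bp. The annular genes dpy-4 and dpy-13 had no region in any list. Of the strut collagens, bli-1 is described above and bli-2 had none. A pooled region thus lay in the start window of 1 of 3 annular genes (33.3%) and 1 of 2 strut genes (50%), against 36.8% of all coding genes.

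The 8 other shape genes had 5 pooled regions (62.5%), against 36.8% of all coding genes. For dpy-17 the signal was 22.5 in the pooled list, 4.75 in replicate 1 and 6.31 in replicate 2, with summits at −167, −135 and −168 bp in that order. For sqt-2 the pooled signal was 21.1 at −697 bp, while the matching replicate summits, with signals of 5.56 in replicate 1 and 9.16 in replicate 2, lay at −205 and −186 bp. Near the pooled summit of sqt-2 replicate 1 had 3.37 and replicate 2 no region. These were the 2 shape genes with matching replicate summits, and only that of dpy-17 lay at its pooled summit. The rol-8 region had 17.7 at −876 bp, with 3.71 in replicate 1 and no region in replicate 2. The dpy-14 region had 13.9 at −29 bp, with 2.40 in replicate 1 at −187 bp and 7.41 in replicate 2 at 43 bp. The lon-3 region had 13.8 at −267 bp and no counterpart in the window in either replicate. Among the others, sqt-1 had a region of 12.3 in replicate 2 only, sqt-3 had 2.42 in replicate 1 at −492 bp and 8.26 in replicate 2 at −792 bp, and rol-6 had none. The matched regions of dpy-17 and sqt-2 ranked between 12373 and 19975 in the replicates, in the weaker part of the lists.

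The adult collagen col-19 (WBGene00000608; chromosome X) had no thresholded peak. Its pooled signal was 28.3 (rank 5744) at 85 bp, with 10.7 in replicate 1 at 154 bp and 11.3 in replicate 2 at −155 bp. The pooled summit lay in a coding exon of col-19, of the overlapping gene ZK1193.2 or of both. The replicate summits lay on opposite sides of the start and did not match within 100 bp. The transmembrane collagen col-99, which matches the symbol rule but is not a cuticle collagen, had no region in any list. Without it the counts with a thresholded peak, a pooled region and matching replicate summits were still 3, 58 and 18.

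Of the 175 members, 82 (46.9%) had no region in any relaxed list, against 47.004% of all coding genes, and 93 had at least 1. A region in all 3 relaxed lists was found at 33 members (18.9%), against 21.9% of all coding genes. A region in the pooled list alone was found at 7, in replicate 1 alone at 17 and in replicate 2 alone at 13. The pooled list with replicate 1 accounted for 9 members, the pooled list with replicate 2 for 9, and both replicates without the pooled list for 5. At the 58 pooled summits, both replicates had a summit within 100 bp for 16 members (27.6%), against 33.6% of all coding genes with a pooled region. Replicate 1 alone had one for 14 members (24.1%), against 17.7%, replicate 2 alone for 14 (24.1%), against 28.4%, and neither for 14 (24.1%), against 20.3%. Most pooled regions, of the members as of all coding genes, were therefore without a summit of both replicates.

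Replicate 1 and replicate 2 summits within 100 bp of each other lay in the window of 18 members (10.3%), against 13.6% of all coding genes. Over the 17 distinct region pairs of these members, with the pair shared by col-159 and col-160 counted once, the median rank was 15075 in replicate 1 and 17435 in replicate 2. Over the 2195 distinct region pairs of the 2720 coding genes with matching summits it was 4986 in replicate 1 and 4374 in replicate 2. The member regions were thus weaker even where the replicates matched. Across the 17 member pairs, Spearman's rho between replicate signals was 0.28, and across the 2195 pairs it was 0.68. Pearson's r of the log2 signals was 0.66 across member pairs and 0.73 across all pairs. These are descriptions across regions that share their 2 libraries, not across replicates, and the 3 thresholded peaks lie at the top of both replicate lists.

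The largest rank differences among the matched members were those of col-12, col-64 and col-73. For col-12 the rank was 5537 in replicate 1 and 28762 in replicate 2. For col-64 (chromosome I) it was 29699 in replicate 1 and 8086 in replicate 2, with signals of 2.38 and 12.2 in that order. For col-73 (chromosome II) it was 5842 in replicate 1 and 26788 in replicate 2, with signals of 10.9 and 4.68 in that order. These regions were near the weak end of 1 list, where neighbouring ranks differ little in signal. The smallest differences were those of col-38, 37 ranks, col-166, 140 ranks, and col-185, 184 ranks, of which col-166 was named for this value after it was seen.

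**Figure D3:**
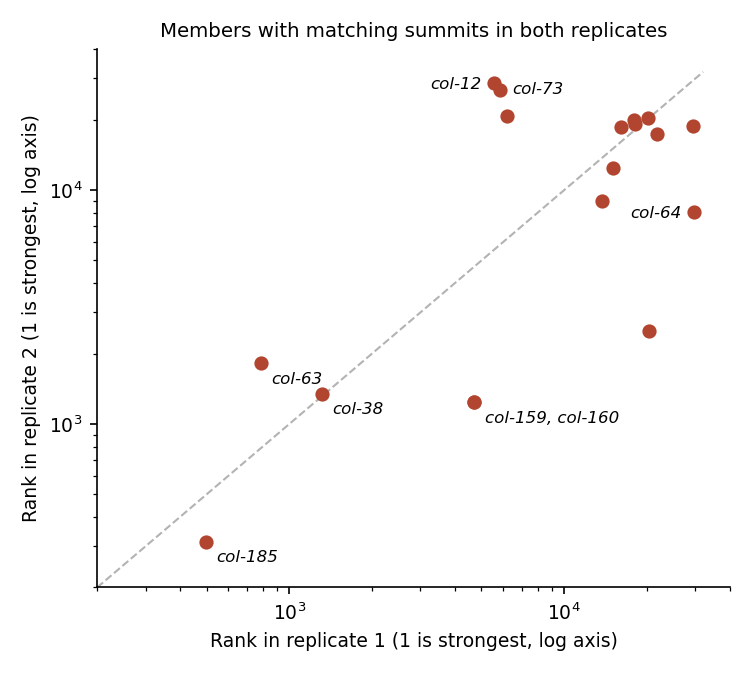
Rank in replicate 1 (horizontal) and replicate 2 (vertical) of the regions of the 18 members with summits within 100 bp in both replicates, on logarithmic axes where 1 is the strongest region and the dashed line marks equal rank. The peaks of col-185, col-63 and col-38 lie at ranks of 1816 or better in both replicates, and most other members lie in the weak corner.

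The strongest pooled region of the 58 members lay at a median of −330 bp from the start, against −264 bp over all coding genes with a region. It was upstream of the start in 48 members (82.8%), against 84.8% of all coding genes. For thresholded peaks of all coding genes the median was −248 bp and 94.97% lay upstream. The 3 thresholded member peaks lay at −935, −637 and −407 bp, all farther upstream than that median. A total of 23 of the 58 member summits were more than 500 bp upstream. This count was not taken over all coding genes, so it is not shown to be particular to the members.

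The 58 members shared 56 distinct pooled regions, since col-159 and col-160 share 1 and the divergent pair col-3 and col-117 another. The member start was the nearest coding start for 49 (84.5%), against 82.9% of all coding genes with a region, and another coding start was nearer for 9, counting col-160 for col-159 and col-117 for col-3. The summit lay in the start window of a coding gene outside the family for 8 members. They were col-38, col-116, col-129, col-148, col-151, col-155, col-161 and dpy-10, and no like count over all coding genes was taken. By annotation, 29 of the 58 summits (50%) were intergenic, against 62.4% over all coding genes with a region. In coding exons there were 9 (15.5%), against 15.7%, in introns 9 (15.5%), against 8.10%, and in untranslated exons 9 (15.5%), against 9.61%. The other 2 (3.45%) were in non-coding RNA genes, against 2.99%. The collagen gene itself held 10 of the summits (17.2%), against 15.2% for all coding genes with a region.

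**Figure D4:**
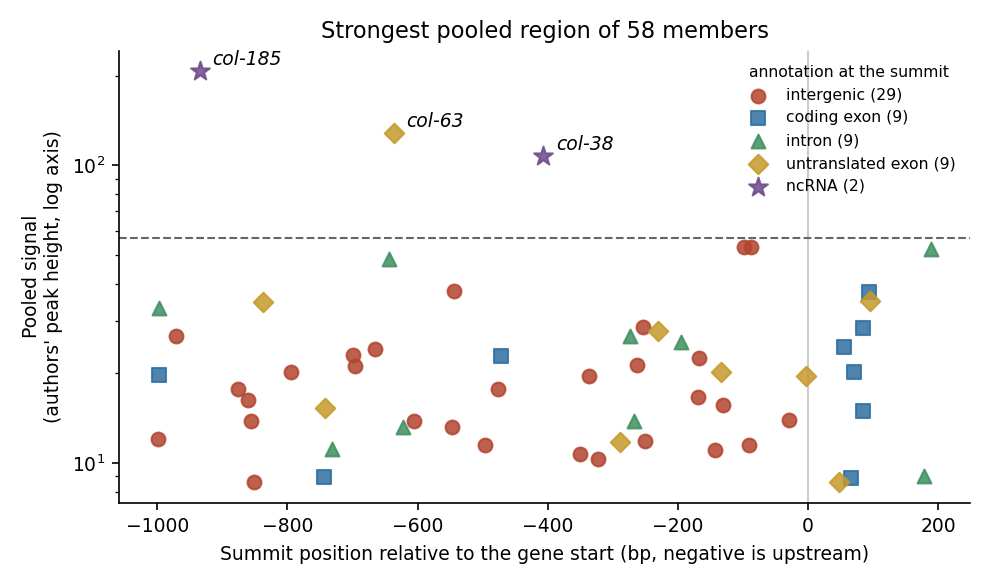
Position of the strongest pooled summit relative to the gene start (bp, negative is upstream) against pooled signal (authors' peak height, logarithmic axis) for the 58 members with a region, with the symbol giving the annotation at the summit. The dashed line is the lowest signal of the thresholded list, 57.0, and the 3 named peaks above it lie at −935, −637 and −407 bp in non-coding RNA genes or an untranslated exon.

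The members were unevenly spread over the chromosomes. Of 33 members on chromosome V, 18 (54.5%) had a pooled region, against 30.98% of the coding genes there. The replicates had regions at 45.5% of these members in replicate 1, against 32.1% of coding genes, and at 42.4% in replicate 2, against 31.1%. Replicate summits within 100 bp of each other lay at 4 of these members (12.1%), close to the 10.5% of coding genes there. Of 44 members on chromosome IV, the largest group, 10 (22.7%) had a pooled region, against 37.6% of coding genes, while each replicate had regions at 31.8% of these members, against 37.1% of coding genes in replicate 1 and 39.3% in replicate 2. On chromosome X a pooled region lay at 9 of 30 members (30%), against 41.9% of coding genes. The regions on chromosome V were weak, which was not particular to this chromosome. The median pooled signal of its members with a region was 15.9, against 18.5 for coding genes there. This median was also lower in members on chromosome I (14.8 against 23.8) and chromosome X (16.2 against 19.5). On chromosomes II, III and IV it was higher in members than in coding genes. A thresholded peak lay at 0 of the members on chromosome V, against 5.05% of coding genes there. The count was also 0 on chromosomes III and IV, against 9.47% and 6.43% of coding genes in that order. Over the whole family, 43.4% of the 53 members with another member start within 5000 bp had a pooled region and 28.7% of the other 122 did, against 36.8% of all coding genes. The thresholded peaks were all in the set of 122.

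**Figure D5:**
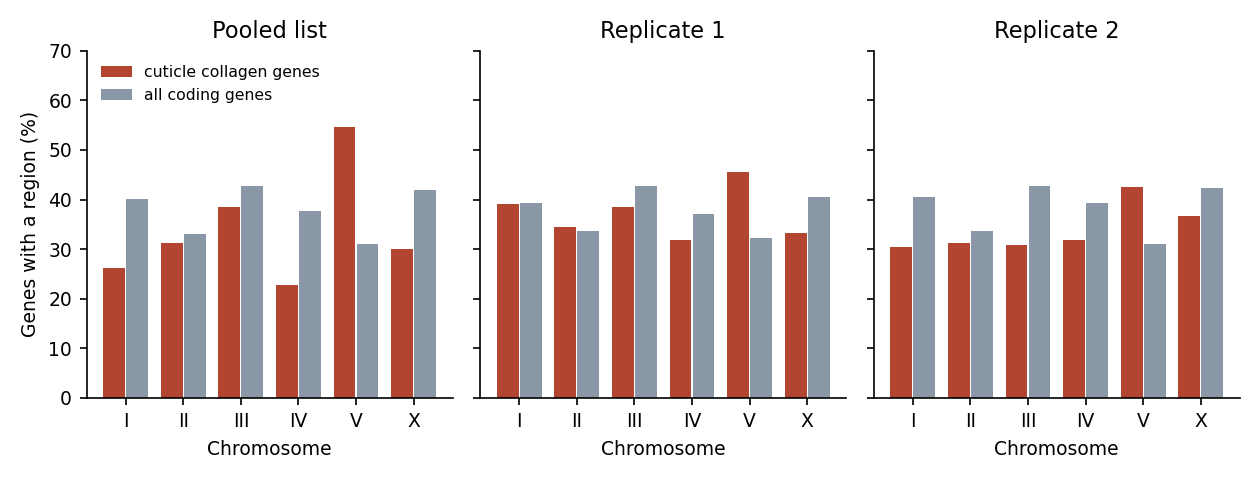
Share of genes, in percent, with a relaxed region in the start window on each chromosome, for the cuticle collagen genes (red, left bar) and all coding genes (grey, right bar) in the pooled list and each replicate. Chromosome V is the only one where the red bar is above the grey bar in all 3 lists, at 54.5% against 30.98% in the pooled list.

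The start regions of the members held the TATA box motif more often than those of all coding genes, and the relaxed regions differed less. TATAAA was found on either strand from 250 bp upstream to 50 bp downstream of the start in 116 of 175 members (66.3%), against 37.9% of all coding genes. On the strand of the gene within 60 bp upstream it was found in 72 members (41.1%), against 9.46%. Within 100 bp of the pooled summit it was found in 18 of 58 members (31.03%), against 22.0% of coding genes with a region. AGGTCA was found in 14.9% of member start regions, against 8.27%, and at 5.17% of member summits, against 4.80%. GATAA, bound by GATA factors such as those of the epidermis, was found in 64.6% of member start regions, against 57.6%, and at 48.3% of member summits, against 44.8%. GAGAG was found in 40.6% of member start regions, against 39.9%, and at 32.8% of member summits, against 37.2%. The tRNA B box motif GTTCNANNC was found in 9.71% of member start regions, against 8.74%, and at 8.62% of member summits, against 7.36%. A match is a description of the letters and not of a site, and TATAAA and GATAA share 4 letters without either containing the other.

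The medians of base composition and repeat content of the start windows were close in members and all coding genes. The median GC content of the window was 35.7% for members and 35.0% for all coding genes. The median share of 31-base words in the window that occur once in the genome was 100% for both. Only 2 members (1.14%), col-3 and col-117, were under 50%, at 46.6% each, against 3.30% of all coding genes. Both have a pooled region, so among genes with one the order was reversed, with 2 of 58 members (3.45%) against 0.408% of coding genes. The share of words that occur once covers the whole window. Whether the relaxed region of this pair, with a pooled signal of 11.4, lies in the repeated part was not examined.

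Other genes of cuticle formation were read in the same way. Of 67 such genes, 3 (4.48%) had a thresholded peak, against 6.77% of all coding genes. A pooled region lay at 23 (34.3%), against 36.8% of all coding genes. Of the 10 enzymes that modify and process collagens, 0 had a thresholded peak and 4 (40%) had a pooled region. The strongest was at pdi-2, which encodes a protein disulfide isomerase that serves in the prolyl 4-hydroxylase complex. Its signal was 54.4 in the pooled list (rank 2196), 20.1 in replicate 1 and 27.6 in replicate 2. The proprotein convertase gene bli-4, which acts in collagen processing, had 35.1 in the pooled list, 8.62 in replicate 1 and 16.9 in replicate 2.

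Of 39 other proteins of the cuticle and apical matrix, 1 (2.56%) had a thresholded peak, against 6.77% of all coding genes. A pooled region lay at 11 (28.2%), against 36.8%. The peak was at cutl-23, a cuticlin-like gene, with a pooled signal of 119.8, and the strongest region below the threshold was at cutl-14, with 35.6. The DBL-1 pathway is a TGF-beta pathway that sets body size and acts in part on collagen genes. Of 9 genes of this pathway, 2 (22.2%) had a thresholded peak, against 6.77% of all coding genes. They were sma-9, which encodes a zinc finger cofactor, with 91.2, and sma-2, which encodes a Smad protein, with 75.5. The strongest sma-9 region was 43.1 at −669 bp in replicate 1 (rank 709) but 14.6 at −306 bp in replicate 2 (rank 6162). For sma-2 it was 20.3 in replicate 1 (rank 2198) and 42.2 in replicate 2 (rank 1283). The Smad gene sma-3 followed below the threshold with 22.6. Of 6 regulators in the epidermis, 0 had a thresholded peak, and blmp-1, which encodes a zinc finger transcription factor, had the strongest region with 46.0. None of the 3 basement membrane collagen genes emb-9, let-2 and cle-1, which are built by other tissues, had a region in any list.

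Families of other genes gave the range against which these counts stand. Of 269 nuclear hormone receptor genes, 12 (4.46%) had a thresholded peak, against 6.77% of all coding genes, and 37.9% a pooled region, against 36.8%. Of 47 genes for large ribosomal subunit proteins, 30 (63.8%) had a thresholded peak and 85.1% a pooled region, with a median pooled signal of 101.2. The ribosomal gene rpl-5 is among them, through the same peak that is counted for col-38.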

How the data were processed

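The data were peak lists from 2 biological replicates of 1 group. Per the manifests deposited with each library, the authors called relaxed regions in each replicate and in the pool against a control alignment, and derived a list thresholded by the irreproducible discovery rate. The sources used here do not give the aligner, peak caller, settings or threshold, and depth is unknown. The deposited signal column is the authors' peak height. A second deposited column is the −log10 of a q-value, used in 1 alternative ranking. The deposited summit offset was added to the region start. Lists on ce11 were used, and the lists on ce10 were not.

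The members and lists were chosen with earlier results of these data known. Gene starts came from Ensembl release 115 (WBcel235, the same build). A summit from 1000 bp upstream to 200 bp downstream of the start counted for a gene, so neighbours can share 1. Trans-splicing can place annotated starts downstream of the true ones. Named genes were all members with a thresholded peak, the 10 strongest below it, the 19 shape genes, col-19, col-99, the 3 largest rank gaps, and, of other cuticle genes, those with a thresholded peak and the strongest below it in each group. The far peaks, col-106 and the members sharing a window were named after their values were seen. Sequences and motif windows were read from the RefSeq copy of the genome. Protein features were not analysed here. Window matching was tested on simulated regions. Python 3.11.15, pandas 2.3.3, numpy 2.4.6, scipy 1.17.1 and matplotlib 3.10.9 were used. Alternatives changed the window, start, gene assignment, overlap, threshold, ranking, list length, summit match and replicate.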

Additional observations from a re-analysis of the deposited data

How the results depend on the processing

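The count of members with a thresholded peak, 3 as reported, was 1 with 500 bp upstream, against 5.42% of all coding genes. It was 5 with 2000 bp upstream, against 9.00%. It was 12 of 175 among the strongest 5000 pooled regions, a share below the 12.3% of all coding genes. It was 0 with regions that had no gene outside the family at the summit, against 2.58% of all coding genes by the stricter rule. That alternative was chosen after seeing the data. Leaving out 1 replicate gave from 3 to 7, and in the list of replicate 2 the share of members was below that of all coding genes, 6.999%. It was 2 with regions ranked by the q-value column, against 6.43% of all coding genes, and 3 under the other 5 alternatives. Under those 5 the share of all coding genes was between 3.88% and 7.26%. The count with a pooled region, 58, was 36 of 175 among the strongest 15000 regions, a share below the 24.0% of all coding genes. It was 34 with no gene outside the family at the summit, against 20.7% by the stricter rule, and stayed within 1.5 times under 8 others. The count with matching replicate summits, 18, was 6 of 175 with the strongest 15000 regions, a share below the 9.39% of all coding genes. It stayed within 1.5 times under 8 others. The median pooled signal, 19.6, lay between 17.1 and 19.9 under 7 alternatives. The median summit position, −330 bp, was −143 bp with 500 bp, −629.5 bp with 2000 bp and −258.5 bp with the region nearest the start. The shorter lists and windows hold fewer regions by construction. No paired analysis was possible because there was 1 group. Depth is unknown, the relaxed lists have a fixed length, and 1 signal per list gives no error beyond the 2 replicates, so a region missing from a list is not shown to be unbound.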
